A study of Mus musculus with 2 samples.

Results

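Copy number along chromosomes 8 and 11 was measured by array comparative genomic hybridization (CGH) in 2 androgenetic haploid embryonic stem cell (AG-haESC) lines of the mouse, *H19*Δ1 and *H19*Δ2. Every non-control probe measured on both arrays that lay on chromosome 8 or 11 and started at or beyond base 4500000 of the mm9 build was taken. No signal enters this rule, although the chromosomes were chosen with earlier results of these data known. This gave 16882 probes, 8033 on chromosome 8 and 8849 on chromosome 11, of 170210 distinct probes measured on both arrays. Both lines were derived from AGH-OG-3, an AG-haESC line that carries an *Oct4* promoter-driven *eGFP* transgene and served as the wild-type control, and each is a single clone in which the *H19* transcription unit and its imprinting control region were removed by CRISPR-Cas9 assisted homologous recombination. All 3 lines carry the transgene and are labelled haploid, and all were grown with 15% fetal bovine serum, leukemia inhibitory factor, CHIR99021 and PD0325901 and depleted of feeder cells before DNA was extracted. The *H19*Δ lines had also been passaged and repeatedly sorted for haploid cells. DNA of the *H19*Δ line was labelled with Cy5 and that of AGH-OG-3 with Cy3, with 1 array per line and no dye swap. The errors below are therefore SDs over probes, and no test between lines or conditions could be made.

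Haploid ES cells hold a single copy of each autosome, and their haploid state is kept in culture only by repeated sorting, since the cells tend to become diploid. Gains of chromosome 8 and of chromosome 11 are the whole-chromosome changes most often seen in cultured mouse ES cells, in which cells with an extra copy can outgrow the others, so that a culture may hold the gain in only part of its cells. CGH compares the DNA of a line with that of a reference at each probe: in a haploid genome, an extra copy in every cell corresponds to a log2 ratio of 1, a gain in part of the cells to less, and no difference from the reference to 0. A change that AGH-OG-3 already carried to the same extent gives 0 as well. Each array was centred on its autosomal median, so 0 stands for the copy number shared by most of the autosomal genome and not for a count of copies. Mouse chromosomes are telocentric, so both chromosomes have in effect a single long arm. RefSeq lists 1043 protein-coding genes on chromosome 8 and 1609 on chromosome 11 of the GRCm38.p6 assembly. Among them are, on chromosome 8, *Zfp42*, which encodes the pluripotency marker REX1, and *Klf2*, a transcription factor of naive pluripotency, and on chromosome 11 *Lif*, the cytokine added to the medium, *Stat3*, through which it acts, and *Trp53*, the p53 tumour suppressor. No gene was placed on a probe, since the arrays are annotated on mm9, so results are given by position.

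The probes covered chromosome 8 from 4507704 to 131734335 and chromosome 11 from 4502135 to 121809961. Neighbouring probes started 11162 bp apart on chromosome 8 and 10494.5 bp apart on chromosome 11 (medians). The largest gap on chromosome 8 ran 2.41 Mb from 19676354 to 22089225, where no statement can be made, whereas the largest on chromosome 11 was 0.122 Mb. Neighbouring probes gave a single-probe noise (SD of their differences over the square root of 2) of 0.128 on the *H19*Δ1 array and 0.127 on the *H19*Δ2 array on the log2 scale, and at least 99.9% of the spots of these probes were well above background in each channel. On chromosome 7, the probes from 149761403 and from 149768746 had log2 ratios of -3.67 and -3.79 in *H19*Δ1 and of -3.70 and -2.92 in *H19*Δ2. They were picked for being strongly low in both lines. No gene position placed them at the deletion, so they are not a test of it. Just below the limit on position, the last probe left out on chromosome 8 read 0.15 in *H19*Δ1 and 0.08 in *H19*Δ2, and the first one taken read -0.13 and -0.15. On chromosome 11 the last probe left out read 0.09 and -0.03, and the first one taken 0.04 and 0.06.

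Neither chromosome was near the level of an extra copy in either line. The median log2 ratio of chromosome 8 was 0.0031 in *H19*Δ1, with an SD of 0.132 over its 8033 probes, and 0.018 in *H19*Δ2, with an SD of 0.126. That of chromosome 11 was 0.011 in *H19*Δ1 and 0.0033 in *H19*Δ2, with SDs of 0.127 and 0.126 over 8849 probes. If AGH-OG-3 has 1 copy, these medians correspond to an extra copy in 0.215% and 1.26% of cells for chromosome 8 and in 0.772% and 0.229% for chromosome 11. The autosomal median of *H19*Δ2 includes the higher chromosome 12, and centred on the autosomes other than 8, 11 and 12 the medians were 0.0041 and 0.025 for chromosome 8 and 0.012 and 0.0097 for chromosome 11, or 0.282%, 1.71%, 0.839% and 0.677% of cells. This moved all chromosomes of an array alike and left their order as it was. The 16 autosomes other than 8, 11 and 12 show how far a chromosome median moves on one array: they lay between -0.024 and 0.0088 in *H19*Δ1 (SD 0.0096) and between -0.042 and 0.046 in *H19*Δ2 (SD 0.019). Chromosome 12 was left out of this background, as its median was 0.152 in *H19*Δ2.

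In *H19*Δ1, chromosome 11 had the highest median of all 19 autosomes, 0.011 against 0.0088 for the next one, chromosome 14, a gap well below the SD of 0.0096 between chromosomes. Chromosome 8 was the tenth of 19 in that line. In *H19*Δ2, chromosome 8 was the third of 19, after chromosomes 12 and 6, and chromosome 11 the fifth. Both values in *H19*Δ2 lay within the range of the 16 other autosomes, although without chromosome 6 the highest of these was 0.010, below chromosome 8. A gain in a share of cells this small was not distinguishable from the spread between chromosomes, and with 1 array per line no share can be given an error beyond that spread.

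**Figure D1:**
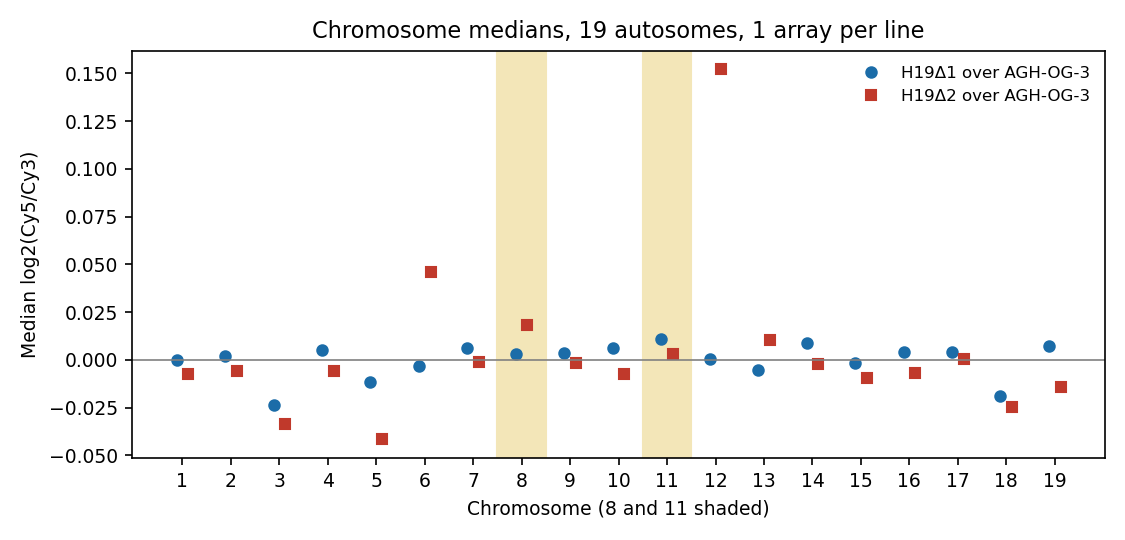
Median log2(Cy5/Cy3) of each of the 19 autosomes (x axis, chromosome number), with circles for H19Δ1 and squares for H19Δ2, 1 array per line; chromosomes 8 and 11 are shaded. Both shaded chromosomes sit between 0.0031 and 0.018 in both lines, while chromosome 12 of H19Δ2 is at 0.152.

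The shared reference drops out when the lines are set against each other. *H19*Δ2 minus *H19*Δ1 had a median of 0.018 on chromosome 8 (SD 0.142 over probes) and of -0.0055 on chromosome 11 (SD 0.134). The 16 other autosomes lay between -0.028 and 0.046 in this difference, with an SD of 0.016, and the highest of them without chromosome 6 was 0.016. Chromosome 8 of *H19*Δ2 thus stood just above *H19*Δ1 by about the SD between chromosomes, and chromosome 11 lay within it. Centred on the autosomes other than 8, 11 and 12, these differences were 0.023 and -3.26e-05. The range given for the 16 other autosomes is before this shift, which moved all chromosomes alike and left their order as it was.

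Each dye was then compared between the arrays, since the Cy3 channel held the same AGH-OG-3 DNA on both and so gives the repeatability of a chromosome median. This comparison was added after the ratios had been seen. In Cy3 the *H19*Δ2 array stood above the *H19*Δ1 array by 0.0018 on chromosome 8 and by 0.0023 on chromosome 11, and the 16 other autosomes lay between -0.0031 and 0.0019 (SD 0.0013), so chromosome 11 was the highest by a small margin. In Cy5, where the lines themselves were compared, the values were 0.014 on chromosome 8 and -0.0066 on chromosome 11, and the 16 other autosomes lay between -0.032 and 0.046 (SD 0.016). The spread of chromosome medians was therefore larger in the channel that held different lines than in the channel that held the same DNA. This pairing covers hybridization and scanning of AGH-OG-3 DNA on 2 arrays and not separate cultures.

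**Figure D2:**
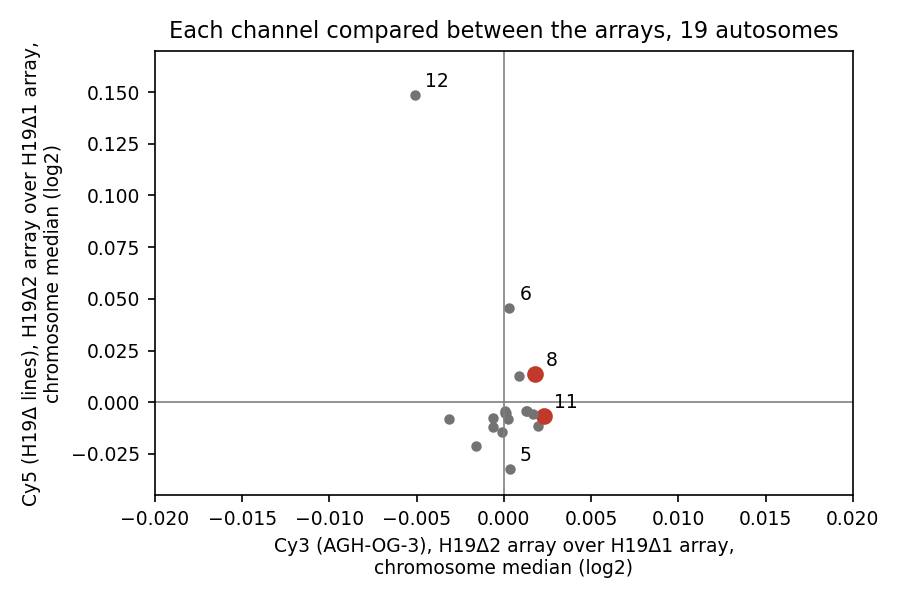
Chromosome medians of the log2 ratio of the H19Δ2 array over the H19Δ1 array in Cy3, the same AGH-OG-3 DNA (x axis), and in Cy5, the H19Δ lines (y axis), 1 point per autosome and 19 in all, with different scales on the axes. Chromosomes 8 and 11 (large points) are at 0.0018 and 0.0023 in Cy3 and at 0.014 and -0.0066 in Cy5, and chromosome 12 is highest in Cy5 at 0.148.

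No part of either chromosome stood apart as an arm would. The probes of each chromosome were divided from the centromere outwards into 3 parts of equal probe number. On chromosome 8, the proximal, middle and distal part had medians of 0.0038, 0.0032 and 0.0026 in *H19*Δ1 and of 0.014, 0.015 and 0.024 in *H19*Δ2. On chromosome 11 they were 0.0058, 0.011 and 0.016 in *H19*Δ1 and -0.0016, 0.0058 and 0.0084 in *H19*Δ2. The same parts of the 16 other autosomes, 48 in all, lay between -0.026 and 0.013 in *H19*Δ1 (SD 0.011) and between -0.056 and 0.121 in *H19*Δ2 (SD 0.024). The distal part of chromosome 11 in *H19*Δ1, at 0.016, lay above the highest of these 48 by less than their SD, and the other values lay within the range. The range in *H19*Δ2 includes chromosome 6, whose own median was 0.046, and was not computed without it.

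Windows of 5 Mb were read next, 26 on chromosome 8, 24 on chromosome 11 and 409 on the 16 other autosomes. On chromosome 8, window medians ran from -0.020 to 0.025 in *H19*Δ1 and from -0.036 to 0.077 in *H19*Δ2. The window from 124504322 was the highest in both lines. On chromosome 11 they ran from -0.0067 to 0.033 in *H19*Δ1 and from -0.025 to 0.028 in *H19*Δ2, and the window from 94501509 was the highest in both lines. In *H19*Δ1, 15 of 26 windows of chromosome 8 (57.7%) and 19 of 24 of chromosome 11 (79.2%) lay above 0, against 217 of 409 (53.1%) on the 16 other autosomes. In *H19*Δ2 they were 22 (84.6%) and 17 (70.8%), against 123 of 409 (30.1%). These shares depend on where 0 is set: centred on the autosomes other than 8, 11 and 12, they were 65.4% and 83.3% against 56.2% in *H19*Δ1 and 88.5% and 83.3% against 46.0% in *H19*Δ2. Of the 50 windows, 1 was at or above 0.05, the window of chromosome 8 from 124504322 in *H19*Δ2, and none was at or below -0.05. Over all autosomes, chromosome 12 included, the share at or above 0.05 was 0.207% of 482 windows in *H19*Δ1 and 7.26% in *H19*Δ2, and the share at or below -0.05 was 1.45% and 3.73%. Among the 409 background windows, 11 (2.69%) were as high as the highest of chromosome 8 in *H19*Δ2 and 16 (3.91%) as its highest in *H19*Δ1. For the highest of chromosome 11 these were 7 (1.71%) in *H19*Δ1 and 17 (4.16%) in *H19*Δ2. The background windows include those of chromosome 6.

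**Figure D3:**
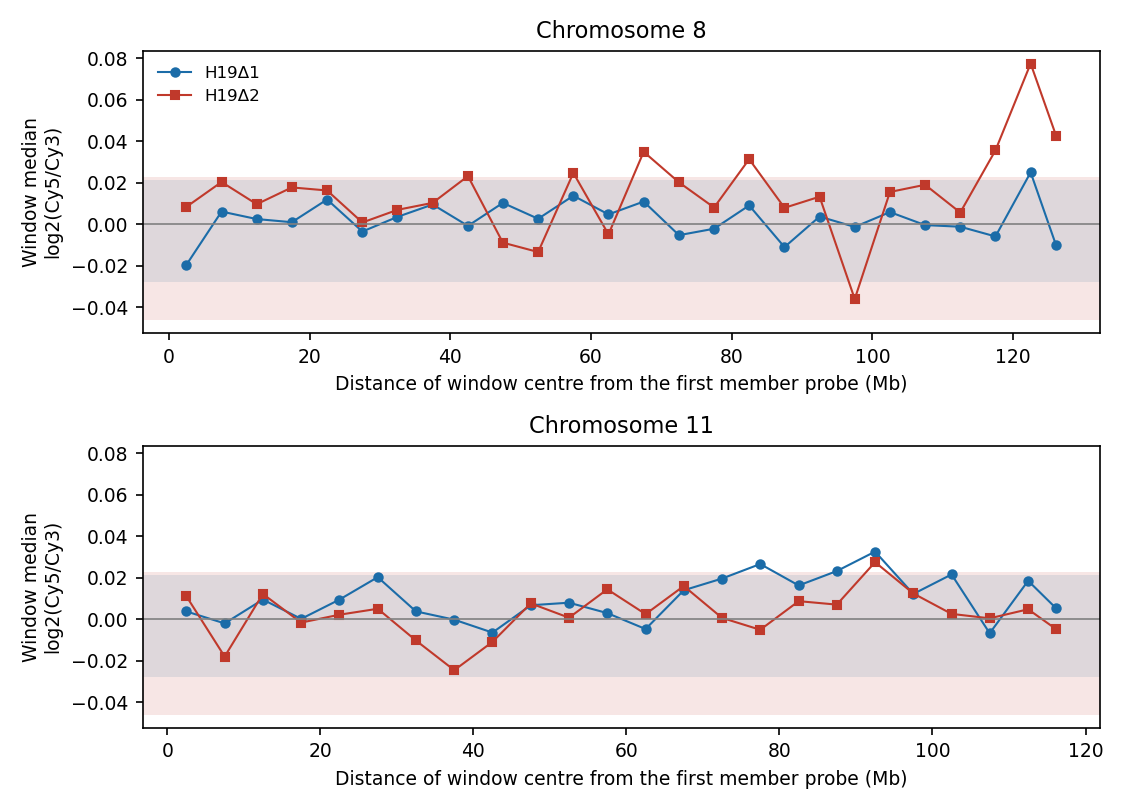
Median log2(Cy5/Cy3) of 5 Mb windows along chromosome 8 (top) and chromosome 11 (bottom) against the distance of the window's centre from the first probe in Mb, with circles for H19Δ1 and squares for H19Δ2; grey and pink bands span the 5th to 95th percentile of the 409 windows of 16 other autosomes in H19Δ1 (-0.028 to 0.021) and H19Δ2 (-0.046 to 0.023). The highest window is on distal chromosome 8 in H19Δ2, at 0.077, where H19Δ1 is at 0.025.

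The distal end of chromosome 8 was a segment of its own in *H19*Δ2. Segmentation placed a border at 122673683, and the 672 probes from there to the last probe of the chromosome, over 9.06 Mb, had a mean of 0.071 ± 0.124 on the log2 scale. Of these probes, 72.0% lay above 0 in *H19*Δ2, against 55.9% over chromosome 8. In *H19*Δ1 53.7% did, against 51.2%, and the mean there was 0.0022 ± 0.190 and the median 0.011. In *H19*Δ2 its proximal 336 probes had a median of 0.077 and its distal 336 probes one of 0.062, while the 672 probes before it had 0.013. The level was lower at the very end in both lines. The last window, from 129500793, was at 0.043 in *H19*Δ2, against 0.077 in the window before. In *H19*Δ1 it was at -0.010, against 0.025. The difference between the lines had medians of 0.051 in the last window and 0.060 in the window before. The border was set on these *H19*Δ2 values, so the counts and medians are a description. *H19*Δ2 was higher than *H19*Δ1 at 471 of the 672 probes. The share over chromosome 8 was not computed for this count, but *H19*Δ2 stood above *H19*Δ1 there too. The median difference was 0.064 in this segment, against 0.018 over chromosome 8. Between the arrays the median of the segment was 0.0074 in Cy3 and 0.069 in Cy5. If AGH-OG-3 has 1 copy, 0.071 corresponds to an extra copy in 5.03% of cells.

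Chromosome 11 had a shallow segment in the opposite direction in *H19*Δ2. The 168 probes from 37712631 to 42155517, over 4.44 Mb, had a mean of -0.062 ± 0.119 in *H19*Δ2 and of -0.0012 ± 0.132 in *H19*Δ1. Of them, 28.6% and 47.0% lay above 0, against 51.3% and 53.6% over chromosome 11. Its borders were likewise set on the *H19*Δ2 values. Between the arrays the median was -0.0040 in Cy3 and -0.044 in Cy5. Segments of 100 or more probes with a mean between 0.05 and 0.5 in size, a rule set after these values were seen, held 8.25% of the 8145 segmented probes of chromosome 8, those before 4500000 included, and 1.87% of the 8992 of chromosome 11 in *H19*Δ2, against 10.3% over all autosomes. In *H19*Δ1 they held none of either chromosome, against 0.893% over all autosomes. Of 16 such segments in *H19*Δ2, on 9 chromosomes, 2 were on chromosomes 8 and 11, so shallow shifts of this kind were not particular to them.

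Segments with a mean of 0.5 or more in size were short on both chromosomes. There were 2 in *H19*Δ1 and 3 in *H19*Δ2, of 18 and 25 on the autosomes. In *H19*Δ1 they held 0.0368% of the probes of chromosome 8 and 0.0334% of those of chromosome 11, against 0.346% over all autosomes. In *H19*Δ2 they held 0.147% and 0.0667%, against 1.55%, chromosome 12 included. The longest had 12 probes, whereas the longest such gain elsewhere had 52 probes in *H19*Δ1, on chromosome 16, and 1684 probes in *H19*Δ2, on chromosome 12.

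The longest was a gain on chromosome 8, chr8:87073437-87177868, in *H19*Δ2. From the first probe to the last, its 12 probes read 0.56, 0.54, 0.50, 0.68, 0.47, 0.43, 0.51, 0.66, 0.43, 0.50, 0.23 and 0.53 in *H19*Δ2. In *H19*Δ1 the same probes read -0.08, -0.01, 0.06, 0.13, -0.19, -0.03, 0.05, 0.13, 0.01, -0.06, -0.06 and 0.10. All 12 probes were above 0 in *H19*Δ2, against 55.9% over chromosome 8. In *H19*Δ1 6 were above and 6 below, against 51.2% above over chromosome 8. The ranges of the lines did not overlap. Segmentation cut this stretch out of the *H19*Δ2 values for being high, so these counts and ranges describe it and test nothing. The mean was 0.50 ± 0.12 in *H19*Δ2 and 0.0044 ± 0.098 in *H19*Δ1, and the difference between the lines was 0.50 ± 0.10. The 20 nearest probes, 10 on each side and outside the borders set by segmentation, had means of 0.034 ± 0.107 in *H19*Δ2 and 0.052 ± 0.147 in *H19*Δ1. It spanned 104 kb from first to last probe and at most 128 kb, as the nearest probes outside it ended at 87065926 and started at 87193910.

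In this stretch the Cy3 channel, AGH-OG-3 on both arrays, differed between arrays by 0.020 ± 0.091, and the Cy5 channel by 0.515 ± 0.130 (*H19*Δ2 over *H19*Δ1). All 12 probes were well above background in both channels of both arrays. The mean corresponds to a ratio of 1.42, or an extra copy in 41.8% of cells if AGH-OG-3 has 1. AGH-OG-3 was read only as the reference, so a gain in part of the *H19*Δ2 cells cannot be told apart from other copy numbers that give the same ratio. The level lay at the threshold of 0.5, which 8 of the 12 probes passed.

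A second stretch with high ratios, chr11:93833988-93853612, was called in both lines. Its 3 probes read 0.46, 0.60 and 0.64 in *H19*Δ1 and 0.54, 0.66 and 0.63 in *H19*Δ2, and the lines overlapped. The means were 0.57 ± 0.10 and 0.61 ± 0.06, which differed by 0.039 ± 0.052. The nearest 20 probes had means of 0.026 ± 0.136 and -0.020 ± 0.126, and the highest of them reached 0.27 in *H19*Δ1 and 0.34 in *H19*Δ2. The stretch spanned 19.6 kb from first to last probe and at most 31.8 kb. All 3 probes were well above background. Between the arrays Cy3 differed by -0.117 ± 0.144 and Cy5 by -0.082 ± 0.194, without a difference between the lines beyond the spread of the 3 probes. As both lines were read against the same AGH-OG-3 DNA in the same dye, a higher copy number in both lines, a lower one in AGH-OG-3 and a response of these probes to the dye cannot be told apart. This segment rests on 3 probes. With at least 5 probes per segment it was widened to 5 probes, with means of 0.39 in both lines that fell short of 0.5, and with at least 10 probes or a higher penalty it was merged into a longer segment near 0.

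**Figure D4:**
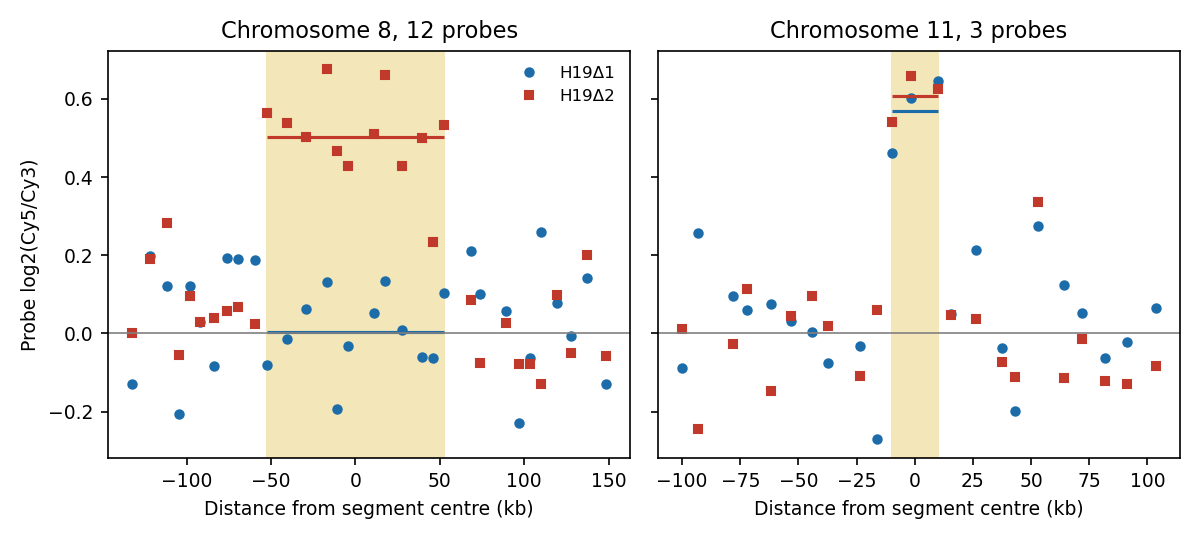
Log2(Cy5/Cy3) of single probes (points; circles H19Δ1, squares H19Δ2) against distance in kb from the centre of the chromosome 8 segment (left) and of the chromosome 11 segment (right), each shaded with the mean of each line as a bar and 10 flanking probes on each side. On chromosome 8 the 12 probes of H19Δ2 lie between 0.23 and 0.68 and those of H19Δ1 around 0, while on chromosome 11 the 3 probes of both lines lie between 0.46 and 0.66.

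The other called segments each rested on a single probe. On chromosome 8, chr8:125525315-125551183 had a mean of -1.22 ± 2.19 over 3 probes in *H19*Δ1, 1 of which was past 0.5 in size. That probe, from 125525315 to 125525374, read -3.75 in *H19*Δ1, where its Cy5 intensity was 12.8, not well above background, against 170.4 in Cy3. Taken as a bound, *H19*Δ1 was at least 3.03-fold lower than AGH-OG-3 there. In *H19*Δ2 the same probe read 0.08, with intensities of 222.3 in Cy5 and 209.5 in Cy3, and its neighbours read 0.17 and 0.11 in *H19*Δ1. The low value was thus seen at 1 probe of 1 line. Its other signals, Cy3 on both arrays and Cy5 in *H19*Δ2, were well above background.

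On chromosome 11, the probe from 78156807 to 78156866 was low in both lines, with -1.24 in *H19*Δ1 and -1.54 in *H19*Δ2. It was well above background in both channels of both arrays. Intensities were 1476 in Cy3 and 630.0 in Cy5 on the first array and 1656 and 573.0 on the second. Cy5 was thus 2.36-fold and 2.91-fold lower at this probe. Its neighbours read -0.01 and -0.19 in *H19*Δ1 and -0.05 and -0.15 in *H19*Δ2. It carried a called segment in *H19*Δ2, of mean -0.61 ± 0.81 over the 3 probes from 78156807 to 78179760, and one just short of the threshold in *H19*Δ1, of mean -0.48 ± 0.66 from 78144397 to 78167552. With no dye swap, a difference of both lines from AGH-OG-3 at this probe and a response of the probe to the dye cannot be told apart.

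Single probes past 0.5 in size were few. In *H19*Δ1, 2 probes of chromosome 8 and 6 of chromosome 11 were higher, 0.0249% and 0.0678%, against 0.102% over all autosomes, and 5 and 4 were lower, 0.0622% and 0.0452%, against 0.21%. In *H19*Δ2, 11 and 6 were higher, 0.137% and 0.0678%, against 1.1%, and 4 and 6 were lower, 0.0498% and 0.0678%, against 0.0946%. The 1.1% includes chromosome 12, where a gain in *H19*Δ2 held 1684 probes with a mean of 0.546. It is therefore not the level of an autosome without such a gain. Of the 11 on chromosome 8 in *H19*Δ2, 8 were the probes of the segment from 87073437. No probe of either chromosome was higher by 1 or more in either line, against 0.00877% over all autosomes in *H19*Δ1 and 0.0% in *H19*Δ2. Those lower by 1 or more were the probe from 125525315 in *H19*Δ1 and the probe from 78156807 in both lines, against 0.0119% and 0.0244%.

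Besides the segment from 93833988, 2 probes were past 0.5 and higher in both lines. The probe of chromosome 8 from 109701599 to 109701658 read 0.69 in *H19*Δ1 and 0.70 in *H19*Δ2, and its neighbours lay between -0.22 and 0.09. The probe of chromosome 11 from 81835728 to 81835787 read 0.83 and 0.68, and its neighbours lay between -0.07 and 0.08. At the second of these the Cy3 signal, AGH-OG-3 on both arrays, itself differed by 0.57 between the arrays. With no dye swap, a difference of both lines from AGH-OG-3 at these probes and a response of the probes to the dye cannot be told apart.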

How the data were processed

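The authors labelled *H19*Δ DNA with Cy5 and AGH-OG-3 DNA with Cy3, hybridized SurePrint G3 Mouse CGH arrays and deposited scanner output. Per the file headers, Feature Extraction 11.5.1.1 (the labels give 10.10) background-subtracted the intensities, detrended them and normalized the dyes linearly without lowess. The deposited log10 ratio is Cy5 over Cy3, and the series matrix holds the same log10 values.

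Log2(Cy5/Cy3) was computed from the deposited processed intensities. Control spots and spots marked as outliers (13 and 23 of 17279 spots of these probes) were left out, repeated spots were averaged, and the autosomal median (0.0113 and 0.0080) was subtracted from each array. For a Cy5 signal not well above background the fold is a bound: the lowest Cy5 well above background (56.6 and 53.5 on the arrays) was set against Cy3. Segments were found on the autosomes and X by penalised least squares. A new segment had to hold 3 probes or more and to lower the residual sum of squares by over 2 σ² ln(n). Here σ was the probe noise from the interquartile range of differences between neighbours (0.121 and 0.119), which single extreme probes affect less than the SD. The number of probes on all chromosomes segmented was n. A run on simulated data planted no segment of 3 probes and none as shallow as the shallow ones described here. It also drew the probes independently, so it does not cover such segments. Segments were called at a mean of 0.5 in size. Windows of under 50 probes were left out.

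The chromosomes, segments and gene list were chosen with earlier results of these data known. Named by position were the called segments, segments of 5 or more probes past 0.2, and every probe past 1. Shallow segments, probes past 0.5 in both lines and the 5 genes, given as background, were added after values were seen. The number of arrays, 1 per line, limits the precision. Alternatives were normexp (offset 50), other centrings, spot filters, window widths and segmentation settings. No probe sequence or gene position on mm9 was used here, so no sequence is shown. Python 3.11.15, numpy 2.4.6, pandas 2.3.3, numba 0.67.0, matplotlib 3.10.9, R 4.3.3 and limma 3.58.1 were used.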

Additional observations from a re-analysis of the deposited data

How the results depend on the processing

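No paired analysis was possible because the lines had 1 array each. Under other settings, 199 of 224 log2 levels moved by less than their spread, which was the SD over chromosomes, their parts, windows or probes, and 40 of 54 counts of segments or probes stayed within 1.5 times. The 10 that changed sign all had sizes of at most 0.0067. No centring, the deposited log ratio and the series matrix gave nearly the same values but were counted as separate settings. These tallies therefore do not rest on independent settings. For some levels the spread was larger than the level itself. In *H19*Δ2 it was 0.124 for the distal segment of chromosome 8, at 0.071, and 0.119 for the shallow one of chromosome 11, at -0.062. Staying within the spread does not show that such a level was stable. Without centring, and likewise with the deposited log ratio or the series matrix, *H19*Δ1 had medians of 0.0144 on chromosome 8 and 0.0224 on chromosome 11, with 0.0152, 0.0146 and 0.0139 in the 3 parts of chromosome 8 and 0.0171, 0.0222 and 0.0275 in those of chromosome 11, each higher by the 0.0113 that centring removes. With normexp, the segment of chromosome 11 from 93833988 rose to 0.75 in *H19*Δ2, and of the probes of both chromosomes 43 in *H19*Δ1 and 75 in *H19*Δ2 were higher by 0.5 or more, against 8 and 17, and 19 in *H19*Δ2 were lower, against 10; the cause was not tested. The called segments, 2 in *H19*Δ1 and 3 in *H19*Δ2, became 1 and 0 at a threshold of 0.75, 1 and 1 with at least 5 probes or a penalty of 4 or 8, and 0 and 1 with at least 10 probes. Without probes that were not well above background in either channel, 1 was called in *H19*Δ1. Over 4 segmentation settings (at least 5 or 10 probes, penalty 4 or 8), the segment of chromosome 8 from 87073437 was called with the same borders in *H19*Δ2 in 4, and that of chromosome 11 from 93833988 in 0 in both lines. The distal segment of chromosome 8 kept its borders in 4 and the shallow one of chromosome 11 in 2. Over normexp and the 2 other spot filters, the same segments kept their borders in 2, 3, 2 and 2 of 3. Other centrings shift all probes alike and cannot move a border. Leaving out the 4 stretches described apart, an alternative chosen after seeing the data, as was the other centring of the windows, moved no chromosome median beyond its spread. The median of chromosome 8 in *H19*Δ2 fell from 0.0181 to 0.0135, and its difference between the lines from 0.0179 to 0.0128. Differences in copy number under about 3 probes, or 22.2 kb on chromosome 8 and 21.1 kb on chromosome 11, were below what these segments resolve.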

Other observations

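Proximal to the region analysed, the 6 probes of chromosome 11 from 3030764 to 3074178 formed a segment in *H19*Δ2 with a mean log2 ratio of 0.29 ± 0.20, from 0.095 to 0.576, and had a mean of 0.24 ± 0.23 in *H19*Δ1. They lie closest to the centromere among the probes of that chromosome and were not counted above.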
